A study of Oryza sativa with 35 samples.

Results

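The genes described here are the nuclear genes of rice that encode the small subunit of Rubisco, the enzyme that fixes CO2 in the Calvin cycle, together with the gene of Rubisco activase. The small subunit loci were taken by name from a list of 5, of which 4 lie on chromosome 12 and 1 on chromosome 2. The activase, LOC_Os11g47970 on chromosome 11, was chosen by its read count, as the most counted locus of the table at 0 h. Of the 6 listed loci, 5 were found among the 57778 loci of the table, and LOC_Os12g19394, a small subunit locus of chromosome 12, was not analysed here. The 5 loci are LOC_Os12g17600 (RBCS, also RBCS-C), LOC_Os12g19381 (RBCS1, also RBCS-A), LOC_Os12g19470 and LOC_Os02g05830, which are small subunit loci, and the activase. All 5 passed the filter of a mean of at least 0.5 FPKM (fragments per kilobase of transcript, scaled to library depth) that left 22961 loci for testing.

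RNA-Seq was carried out on whole rice plants aged 30 days of DC90, a chilling-tolerant chromosome segment substitution line that carries the wild rice (Oryza rufipogon) locus CTS-12 in the background of 9311, and of 9311, its chilling-sensitive indica recurrent parent. Plants of both lines were sampled at 0 h before chilling, after 12, 24 and 72 h at 10 °C by day and 8 °C by night, and at 84 and 96 h, which were 12 and 24 h after return to normal growth conditions. Each of the 12 groups had 3 libraries, except 9311 at 84 h, which had 2. DC90 is a single line and carries a wild rice segment, so a difference from 9311 belongs to that line as a whole. No plants kept at normal temperature at 12 to 96 h were analysed here, so chilling, plant age and hours passed cannot be told apart, and 12 and 84 h fell at another time of day than 0 h.

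Rubisco is built of a large subunit, encoded in the chloroplast genome, and a small subunit, encoded by a family of nuclear RBCS genes, and chloroplast chaperonins help to assemble them. Rubisco activase is a nuclear-encoded ATPase that frees active sites blocked by tightly bound sugar phosphates, and it is known for its sensitivity to temperature. In rice, the small subunit genes of chromosome 12 serve the leaf blade, and the gene of chromosome 2 is known for expression in tissues other than the leaf blade.

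Total counts per library ran from 28004101 to 68927044 with a median of 41334252. Summed FPKM of 4 leaf markers ran from 8732 to 14563 in DC90 and from 10905 to 12201 in 9311 at 0 h, so green tissue was present. The antenna genes among these markers varied widely within some groups. LOC_Os09g17740 had 120, 2.72 and 4386 FPKM in DC90 at 0 h and 1.61, 6761 and 6257 FPKM in 9311 at 96 h. LOC_Os01g41710 had 862, 8873 and 4.63 FPKM in DC90 at 96 h. The sums and calls of the leaf markers carry this spread. Summed FPKM of 4 root markers was between 2.27 and 145 in 34 of the 35 libraries. In DC90 0 h replicate 3 it was 353. Among these markers, the iron transporter gene IRT1 stayed at 0 to 2.51 FPKM. NRT2.1 stayed at 0 to 5.07 FPKM, except for 51.1 FPKM in DC90 0 h replicate 3. The markers Lsi1 and Lsi2 made up most of the sum in every library. DC90 0 h replicate 3 also stood apart at LOC_Os12g17600, with 4281 FPKM beside 895 and 843 FPKM. Among 40 chromosome 12 loci that separated the lines at 5 or more of the 6 times, 9311 12 h replicate 2 was nearer to its own label at 31 and every other library at 37 to 40. These loci were chosen by calls between the labelled lines in these same libraries, so this is no independent check of the labels. DC90 24 h replicate 1 stood low at LOC_Os12g17600, at 236 FPKM beside 1592 and 2053 FPKM. Values that these 3 libraries moved most are given below with and without them.

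The activase was, by the way it was chosen, the top locus by count at 0 h, where it took 1.21% of all counts in DC90 and 1.32% in 9311. These shares are a description and were not tested. The second locus, LOC_Os01g41710, a light-harvesting antenna gene, took 1.04% in DC90 and 0.739% in 9311. The 5 loci together took 1.77 ± 0.326% of counts at 0 h in DC90 and 2.24 ± 0.462% in 9311 (SD, n = 3 each). At 72 h they took 0.154 ± 0.0898% in DC90 and 0.0975 ± 0.0823% in 9311 (SD, n = 3 each), the lowest mean share of each line.

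**Figure D1:**
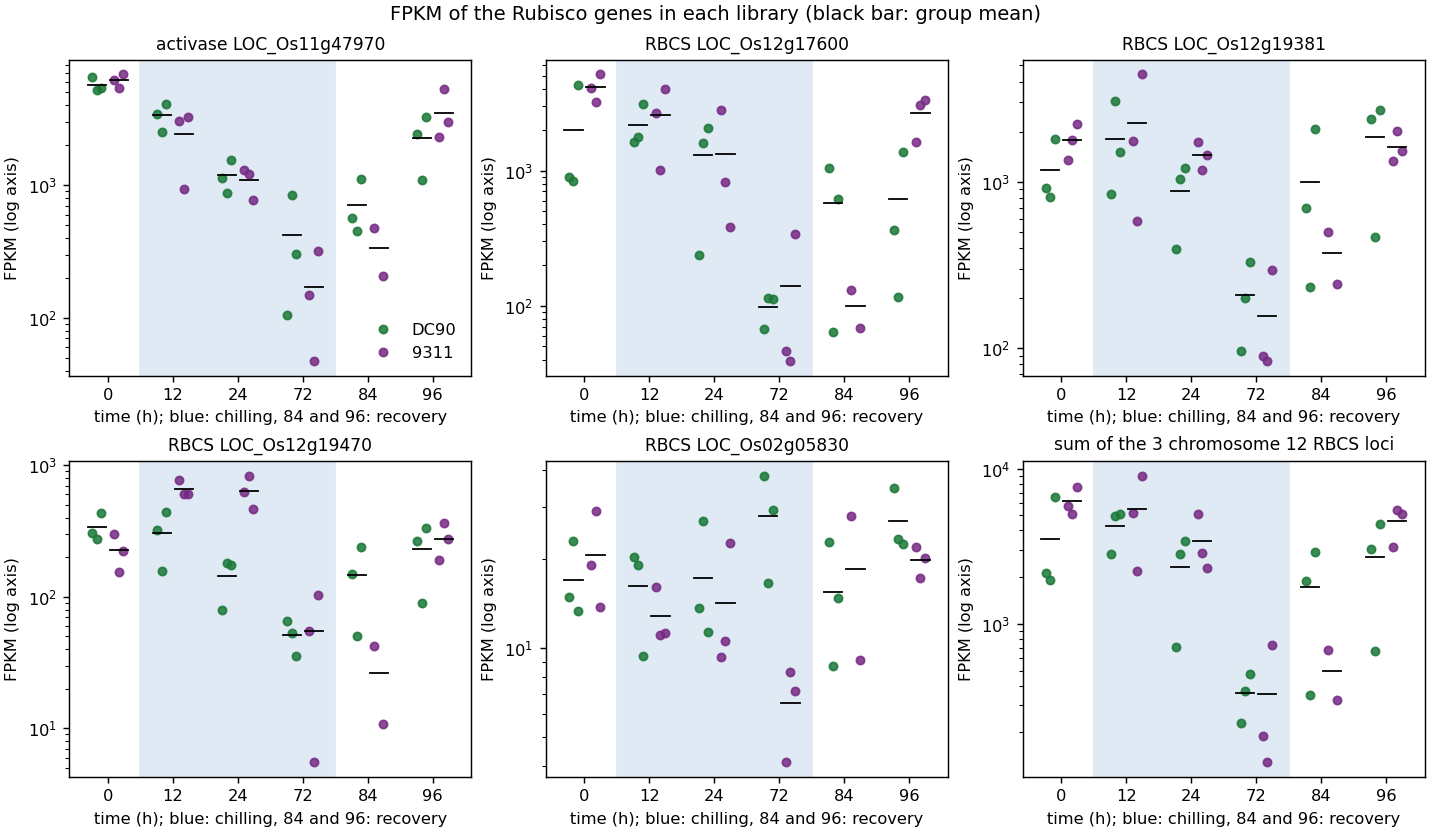
Level of each of the 5 loci and of the sum of the 3 chromosome 12 loci, in FPKM on a logarithmic axis, against time in hours (0 h before chilling, 12 to 72 h chilled and shaded, 84 and 96 h recovering). Each point is 1 library of DC90 or 9311 and each black bar a group mean; the activase mean is lowest at 72 h in both lines, while LOC_Os02g05830 stays between 4.12 and 38.3 FPKM throughout.

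In DC90 the activase stood at 6508, 5205 and 5416 FPKM before chilling, and after 12, 24 and 72 h of chilling at 3450, 2533 and 4088 FPKM, 1129, 880 and 1548 FPKM, and 105, 849 and 301 FPKM. At 84 h it stood at 570, 448 and 1121 FPKM and by 96 h at 2428, 1098 and 3287 FPKM. The levels in 9311 before chilling were 6256, 5437 and 6839 FPKM, and after 12, 24 and 72 h of chilling 3057, 943 and 3268 FPKM, 1300, 1204 and 770 FPKM, and 149, 47.0 and 319 FPKM. Recovering 9311 plants had 473 and 205 FPKM at 84 h and, by 96 h, 2299, 5279 and 2969 FPKM. The chilled and recovering libraries all lay below the 0 h libraries of their own line in FPKM, and as a share of counts the only overlap was at 96 h in 9311.

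As a description with no test, since 0 h chose the gene, its log2 fold change against 0 h in DC90 was −0.63, −2.15, −4.02, −3.43 and −1.47 for 12, 24, 72, 84 and 96 h. The same values in 9311 were −1.10, −2.16, −5.07, −4.54 and −0.80, the first being −0.67 without 9311 12 h replicate 2. In these whole plants, fewer green cells and less of the transcript per cell cannot be told apart. Ordered by mean FPKM, the 12 groups ran from 9311 at 0 h (6177) and DC90 at 0 h (5710), through 9311 at 96 h (3516), DC90 (3357) and 9311 (2423) at 12 h, DC90 at 96 h (2271) and DC90 (1186) and 9311 (1092) at 24 h, to DC90 at 84 h (713), DC90 at 72 h (418), 9311 at 84 h (339) and 9311 at 72 h (172). The libraries of all 11 neighbouring pairs in this order overlapped.

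The small subunit loci were lower after 72 h of chilling than before it, in 3 of 4 loci in DC90 and in 4 of 4 in 9311. Tests were made with edgeR's quasi-likelihood method, with p-values adjusted by Benjamini-Hochberg over all 22961 loci and a call at an adjusted p of at most 0.05. Of all loci, 21.6% were called lower and 18.6% higher at 72 h in DC90, and 24.9% lower and 23.9% higher in 9311. By limma on log2(FPKM + 1), which has no TMM scaling, 16.8% were lower and 26.2% higher in DC90, and the median over all loci was 0.16 in place of −0.07 by edgeR. LOC_Os12g17600, the small subunit locus with the highest level at 0 h in 9311, had 67.5, 114 and 111 FPKM at 72 h against 895, 843 and 4281 FPKM at 0 h in DC90. In 9311 it had 46.6, 38.8 and 337 FPKM at 72 h against 4111, 3198 and 5138 FPKM at 0 h. The groups did not overlap in either line, although 1 library was high at 0 h in DC90 and 1 at 72 h in 9311. The log2 fold change was −4.78 (SE 1.16, adjusted p = 0.00184) in DC90 and −4.81 (SE 1.16, adjusted p = 0.00137) in 9311.

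LOC_Os12g19381 had 96.5, 201 and 331 FPKM at 72 h against 920, 814 and 1811 FPKM at 0 h in DC90, and 89.4, 83.6 and 294 FPKM at 72 h against 1352, 1789 and 2216 FPKM at 0 h in 9311. All 72 h libraries lay below all 0 h libraries of their line. Its log2 fold change was −2.70 (SE 0.75, adjusted p = 0.00579) in DC90 and −3.50 (SE 0.78, adjusted p = 0.000644) in 9311. It was the only small subunit locus past the stricter thresholds of the study, a log2 fold change of at least 2 in size with an adjusted p of at most 0.001, and only in 9311. Those thresholds called 5.06% of all loci lower in DC90 and 6.9% in 9311.

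LOC_Os12g19470, the lowest of the 3 loci found on chromosome 12, had 65.8, 53.3 and 35.2 FPKM at 72 h against 304, 274 and 433 FPKM at 0 h in DC90. In 9311 it had 54.6, 5.51 and 104 FPKM at 72 h against 301, 154 and 224 FPKM at 0 h. The groups again did not overlap. Its log2 fold change was −2.72 (SE 0.73, adjusted p = 0.00413) in DC90 and −1.93 (SE 0.71, adjusted p = 0.0259) in 9311. The call in 9311 was lost without replicate 1 (adjusted p = 0.0731) or replicate 3 (0.0522) of 0 h, and without replicate 1 (0.0684) or replicate 2 (0.0713) of 72 h, and with only the libraries of both times in the fit (0.154).

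LOC_Os02g05830, the chromosome 2 locus, was on a level of its own. It had 38.3, 16.6 and 29.2 FPKM at 72 h against 14.8, 22.9 and 13.3 FPKM at 0 h in DC90, which overlapped (log2 fold change 0.44, SE 0.41, edgeR adjusted p = 0.411). In 9311 it had 4.12, 8.32 and 7.17 FPKM at 72 h against 19.1, 29.2 and 13.8 FPKM at 0 h, with no overlap, and fell by 1.54 on the log2 scale (SE 0.42, adjusted p = 0.00351). Of the 3 tested root markers, 3 were called lower in 9311 at 72 h and 2 in DC90, and their part in the values of this locus was not tested.

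Reads that match more than 1 near-identical small subunit copy may be split in a way not given in the sources used here. The counts of the 3 chromosome 12 loci were therefore also summed. LOC_Os12g19394, the chromosome 12 copy not analysed here, is not part of this sum, and how reads that match it were counted is not given. The sum was 358 ± 124 FPKM at 72 h against 3525 ± 2600 FPKM at 0 h in DC90, and 351 ± 334 FPKM at 72 h against 6161 ± 1266 FPKM at 0 h in 9311 (SD, n = 3 each). Its log2 fold change was −3.48 (SE 0.81, edgeR adjusted p = 0.00119) in DC90 and −3.90 (SE 0.82, adjusted p = 0.000363) in 9311. Without DC90 0 h replicate 3, the value in DC90 was −2.84 (adjusted p = 0.0081), and LOC_Os12g17600, LOC_Os12g19381 and LOC_Os12g19470 were at −3.60 (0.0134), −2.43 (0.0197) and −2.73 (0.00848). The summed leaf markers moved alike. Of the 4 markers, 3 were called lower at 72 h than at 0 h in each line (median log2 fold change −2.97 in DC90 and −2.90 in 9311). Their part in the fall of the small subunit loci was not tested.

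At the other times fewer of the small subunit loci differed from 0 h. In DC90, edgeR called 0 of 16 tests at 12, 24, 84 and 96 h, with 2 at an unadjusted p under 0.05, 1 by DESeq2 and 0 by limma. The share of all loci called lower in DC90 was 14.5%, 20.5%, 9.07% and 4.74% for 12, 24, 84 and 96 h. By limma on log2(FPKM + 1), 7.12% were lower and 22.6% higher at 84 h, where edgeR called 3.24% higher. In DC90, the log2 fold changes of LOC_Os12g17600 for 12 and 24 h were 0.17 and −0.38, which became 1.34 (adjusted p = 0.421) and 0.79 (adjusted p = 0.606) without DC90 0 h replicate 3. Without DC90 24 h replicate 1, the 24 h value was 0.13 (adjusted p = 0.938). For 84 and 96 h the values of this locus were −2.46 (adjusted p = 0.131) and −1.84 (adjusted p = 0.357), which became −1.29 (0.556) and −0.66 (0.871) without DC90 0 h replicate 3.

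In 9311, LOC_Os12g19470 was the one small subunit locus called at 24 h, and it was higher there. It had 622.5, 836 and 463 FPKM at 24 h and 767, 608 and 603 FPKM at 12 h, against 301, 154 and 224 FPKM at 0 h. Every library at 12 and 24 h lay above every library at 0 h. The log2 fold change was 1.87 (SE 0.71, edgeR adjusted p = 0.0359) at 24 h and 1.73 (SE 0.70, adjusted p = 0.0721, and 0.0295 by DESeq2) at 12 h, the second being 1.88 (adjusted p = 0.0694) without 9311 12 h replicate 2. At 24 h in 9311, 20.7% of all loci were called higher and 20.4% lower, against 14.2% higher and 29.8% lower by limma on log2(FPKM + 1), by which the median over all loci was −0.32 in place of −0.08. None of the 4 small subunit loci was called lower by edgeR, at an unadjusted p, by DESeq2 or by limma. The call at 24 h was lost without replicate 1 (adjusted p = 0.0561), replicate 2 (0.124) or replicate 3 (0.0774) of 0 h or replicate 1 (0.0578) or replicate 2 (0.134) of 24 h, and with limma on log2(FPKM + 1) (0.0828).

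At 84 h in 9311, 12 h into recovery, LOC_Os12g17600 had 131 and 67.9 FPKM and LOC_Os12g19470 had 42.1 and 10.8 FPKM, all below the 0 h libraries. Both were called lower than at 0 h, with log2 fold changes of −5.69 for LOC_Os12g17600 (SE 1.46, edgeR adjusted p = 0.0123) and −3.45 for LOC_Os12g19470 (SE 0.89, adjusted p = 0.0133). Of all loci, 5.84% (1341) were called lower and 3.78% (869) higher in this comparison, against 1181 and 2407 loci by limma on log2(FPKM + 1). LOC_Os12g19381, with 499.9 and 245 FPKM, also lay below all 0 h libraries but was not called (−2.64, SE 0.88, adjusted p = 0.058), while DESeq2 called it (0.00761). The call of LOC_Os12g17600 was lost without either 84 h library (adjusted p = 0.0713 without replicate 1 and 0.212 without replicate 3), and that of LOC_Os12g19470 only without replicate 3 (0.266). With 1 library left at 84 h, that library is assumed to vary like those of the other groups.

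At 96 h and at 12 h in 9311, edgeR called 0 of 8 tests of the small subunit loci, with 1 at an unadjusted p under 0.05, 1 by DESeq2 and 0 by limma. The share of all loci called lower was 11.3% at 12 h and 1.66% at 96 h, and at 12 h 13.9% were called higher, against 17.1% lower and 8.82% higher by limma on log2(FPKM + 1). At 96 h LOC_Os12g17600 had 1628, 3055 and 3348 FPKM in 9311, and the log2 fold changes of the 4 small subunit loci against 0 h lay between −0.71 and 0.10. The libraries of each of the 4 loci overlapped those of 0 h.

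Prolonged chilling was compared as 72 h against 24 h, both in the cold and at the same time of day, and here the activase could be tested. In 9311 all 5 loci fell, against 10.2% of all loci called lower and 7.74% higher, or 6.46% lower and 14.5% higher by limma on log2(FPKM + 1). The log2 fold change was −2.91 for the activase (SE 0.71, edgeR adjusted p = 0.00552), −3.49 for LOC_Os12g17600 (SE 1.09, adjusted p = 0.0267), −3.43 for LOC_Os12g19381 (SE 0.78, adjusted p = 0.00315), −3.80 for LOC_Os12g19470 (SE 0.76, adjusted p = 0.00117) and −1.31 for LOC_Os02g05830 (SE 0.41, adjusted p = 0.0284). None of the 5 overlapped between 72 and 24 h, and the share of all loci without overlap was not counted here. The sum of the chromosome 12 loci fell by 3.55 (SE 0.81, edgeR adjusted p = 0.00324). With only the libraries of these 2 groups in the fit, 0 of the 5 were called, in a fit that called 1 of all loci in either direction in place of 4112. The call of LOC_Os12g17600 was lost without replicate 1 of 24 h (adjusted p = 0.141) or replicate 1 (0.112) or replicate 2 (0.0737) of 72 h, and that of LOC_Os02g05830 without replicate 3 of 24 h (0.123) or replicate 1 of 72 h (0.13) and with limma on log2(FPKM + 1) (0.108).

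In DC90, LOC_Os12g17600 had 67.5, 114 and 111 FPKM at 72 h against 236, 1592 and 2053 FPKM at 24 h, and LOC_Os12g19381 had 96.5, 201 and 331 FPKM at 72 h against 394, 1046 and 1204 FPKM at 24 h. Neither locus overlapped between the times. Both fell, with log2 fold changes of −4.39 (SE 1.14, edgeR adjusted p = 0.0138) and −2.53 (SE 0.75, adjusted p = 0.0289), 2 of the 5 loci, against 7.22% of all loci called lower. By limma on log2(FPKM + 1), 3.78% of all loci were lower and 15.2% higher, where edgeR called 918 loci higher. The activase (−1.88, SE 0.68, adjusted p = 0.0756) and LOC_Os12g19470 (−1.86, SE 0.71, adjusted p = 0.0883) also did not overlap but were not called, and LOC_Os02g05830 was at 0.25 (SE 0.41, adjusted p = 0.749). Without DC90 24 h replicate 1 the values were −4.90 (adjusted p = 0.0106) for LOC_Os12g17600, −2.88 (0.0258) for LOC_Os12g19381 and −1.91 (0.119) for the activase. Leaving out DC90 72 h replicate 2, the highest of its group for the activase, gave −2.92 (adjusted p = 0.0274) for it and ended the calls of LOC_Os12g17600 (0.052) and LOC_Os12g19381 (0.0939). These 2 calls were also lost without DC90 72 h replicate 1 (0.0778 and 0.143), and that of LOC_Os12g19381 without DC90 24 h replicate 2 (0.0734) or replicate 3 (0.0825) and with limma on log2(FPKM + 1) (0.0534). By DESeq2 the activase (0.0244) and LOC_Os12g19470 (0.0349) were called as well. Of the 4 leaf markers, 1 was called lower at 72 h than at 24 h in each line. Their median log2 fold change was −1.71 in DC90 and −2.07 in 9311, and their part in these values was not tested.

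After 12 h of recovery 1 of the 5 loci was called higher than at 72 h and 1 lower in DC90, and none in 9311. In DC90, LOC_Os12g19381 had 694, 233 and 2070 FPKM at 84 h against 96.5, 201 and 331 FPKM at 72 h, and rose by 1.85 on the log2 scale (SE 0.73, edgeR adjusted p = 0.044) although the groups overlapped. It was the only one of the 5 loci called higher, against 19.5% of all loci. LOC_Os02g05830 fell in DC90 by 1.01 (SE 0.41, adjusted p = 0.0493), with 22.8, 8.73 and 14.8 FPKM at 84 h against 38.3, 16.6 and 29.2 FPKM at 72 h, where 21.4% of all loci were called lower. Both calls lay close to the threshold. That of LOC_Os12g19381 was lost without replicate 1 (adjusted p = 0.159) or replicate 2 (0.111) of 72 h or replicate 1 (0.0554) or replicate 3 (0.333) of 84 h, and that of LOC_Os02g05830 without replicate 1 (0.169) or replicate 3 (0.115) of 72 h or replicate 2 (0.211) or replicate 3 (0.102) of 84 h. With no filter on low values neither was called (0.0511 and 0.0764).

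In 9311, edgeR called 0 of the 5 loci between 84 and 72 h, with 1 at an unadjusted p under 0.05, 1 by DESeq2 and 1 by limma, where 23.8% of all loci were called higher and 23.9% lower, against 33.4% and 16.7% by limma on log2(FPKM + 1). The activase was at 0.59 (SE 0.66, adjusted p = 0.501) in DC90 and 0.53 (SE 0.73, adjusted p = 0.573) in 9311 on the log2 scale. The summed chromosome 12 loci were at 1720 ± 1295 FPKM at 84 h against 358 ± 124 FPKM at 72 h in DC90 (SD, n = 3 each), and at 673 and 324 FPKM at 84 h against 190, 128 and 735 FPKM at 72 h in 9311. The sum had a log2 fold change of 1.87 (SE 0.76, adjusted p = 0.0488) in DC90 and 0.05 (SE 0.82, adjusted p = 0.964) in 9311. The call of the sum in DC90 was lost without replicate 1 (0.147), replicate 2 (0.109) or replicate 3 (0.0662) of 72 h or replicate 1 (0.0972) or replicate 3 (0.204) of 84 h, and with no filter (0.0562).

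After 24 h of recovery most of the loci stood above their level at 72 h, with 4 of 5 called higher in DC90 and 5 of 5 in 9311, against 21.2% and 26.4% of all loci in those lines. In DC90 the activase had 2428, 1098 and 3287 FPKM at 96 h against 105, 849 and 301 FPKM at 72 h, and rose 5.87-fold (log2 fold change 2.55, SE 0.70, edgeR adjusted p = 0.00456). In 9311 it had 2299, 5279 and 2969 FPKM at 96 h against 149, 47.0 and 319 FPKM at 72 h, and rose 19.2-fold (4.27, SE 0.76, adjusted p = 4.36e-05). The groups did not overlap in either line, and 1 library of DC90 at 72 h was well above the others.

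LOC_Os12g17600 had 360, 116 and 1369 FPKM at 96 h against 67.5, 114 and 111 FPKM at 72 h in DC90, and 1628, 3055 and 3348 FPKM at 96 h against 46.6, 38.8 and 337 FPKM at 72 h in 9311. In DC90 the lowest library at 96 h lay just above the highest at 72 h in FPKM, and the groups overlapped as a share of counts. LOC_Os12g17600 rose on the log2 scale by 2.94 (SE 1.07, edgeR adjusted p = 0.0275) in DC90 and by 4.10 (SE 1.12, adjusted p = 0.00343) in 9311. LOC_Os12g19381 rose by 2.94 (SE 0.76, adjusted p = 0.00288) in DC90 and 3.35 (SE 0.78, adjusted p = 0.000776) in 9311, and LOC_Os12g19470 by 2.22 (SE 0.71, adjusted p = 0.0138) and 2.03 (SE 0.71, adjusted p = 0.0182). LOC_Os02g05830 rose 2.83-fold in 9311 (SE 0.41 on the log2 scale, adjusted p = 0.00368), with 22.0, 17.3 and 20.1 FPKM at 96 h against 4.12, 8.32 and 7.17 FPKM at 72 h, and was at 0.07 (SE 0.40, adjusted p = 0.901) in DC90. The summed root markers were higher at 96 h than at 72 h in 9311, at 42 to 145 FPKM against 2.27 to 9.65 FPKM. They were also higher in DC90, at 27.3 to 52.7 FPKM against 18.3 to 26.8 FPKM. Of the 3 tested root markers, edgeR called 3 higher at 96 h in 9311 and 0 in DC90. Over the 35 libraries, Pearson's r of the root markers was 0.35 with LOC_Os02g05830 and 0.32 to 0.54 with the other loci. The part of the root markers in the rise of LOC_Os02g05830 was not tested. Of the 4 leaf markers, 2 were called higher at 96 h than at 72 h in each line. Their median log2 fold change was 2.01 in DC90 and 3.24 in 9311, and their part in the rise of the other loci was not tested.

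In DC90 the call of LOC_Os12g17600 was lost without replicate 1 (adjusted p = 0.0908), replicate 2 (0.065) or replicate 3 (0.0629) of 72 h, with limma on log2(FPKM + 1) (0.103) and without replicate 3 of 96 h, where the log2 fold change was 1.40 (0.294). That of LOC_Os12g19470 was lost without replicate 3 of 72 h (0.0605) or replicate 3 of 96 h (0.0504). In 9311 the call of LOC_Os12g19470 was lost without replicate 1 (0.0519) or replicate 2 (0.0516) of 72 h and with only these groups in the fit (0.12).

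Recovery and chilling at the same time of day were compared as 84 h against 12 h. At 12 h into recovery, 2 of 5 loci in DC90 and 4 of 5 in 9311 were called lower than 12 h into chilling. Of all loci, 21.9% and 19.3% were called lower in those lines. By limma on log2(FPKM + 1), 13.0% of all loci were lower and 38.6% higher in DC90, where edgeR called 18.7% higher, and 10.3% lower and 32.5% higher in 9311, where edgeR called 16.4% higher. The median over all loci was 0.47 in DC90 and 0.42 in 9311 by limma, in place of 0.03 and −0.01 by edgeR. The activase had 570, 448 and 1121 FPKM at 84 h against 3450, 2533 and 4088 FPKM at 12 h in DC90, and 473 and 205 FPKM at 84 h against 3057, 943 and 3268 FPKM at 12 h in 9311. No library at 84 h reached the level of any library at 12 h of its line. The log2 fold change of the activase was −2.80 (SE 0.71, edgeR adjusted p = 0.0026) in DC90 and −3.44 (SE 0.86, adjusted p = 0.003) in 9311. Of the 4 leaf markers, 3 were called lower in DC90 (median −3.66) and 2 in 9311 (median −4.02), and their part in these values was not tested.

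LOC_Os12g17600 fell too, with −2.63 (SE 1.05, edgeR adjusted p = 0.0473) in DC90 and −5.25 (SE 1.42, adjusted p = 0.00542) in 9311. In 9311, LOC_Os12g19381 was at −3.07 (SE 0.90, adjusted p = 0.0097) and LOC_Os12g19470 at −5.18 (SE 0.98, adjusted p = 0.000222), the second with 42.1 and 10.8 FPKM at 84 h against 767, 608 and 603 FPKM at 12 h. LOC_Os02g05830 was at −0.65 (adjusted p = 0.21) in DC90 and −0.05 (adjusted p = 0.951) in 9311. Without 9311 12 h replicate 2 the 9311 values were −3.87 (0.000978) for the activase, −5.68 (0.00337) for LOC_Os12g17600, −3.54 (0.00263) for LOC_Os12g19381 and −5.33 (0.000235) for LOC_Os12g19470. The call of LOC_Os12g17600 in DC90 was lost without any one of the 12 h libraries (adjusted p = 0.0667, 0.0517 and 0.122 for replicates 1 to 3) or without replicate 2 (0.153) or replicate 3 (0.0984) of 84 h, and with no filter (0.0556). In 9311 the calls of the activase (0.0638), LOC_Os12g17600 (0.0762) and LOC_Os12g19381 (0.119) were lost without replicate 3 of 84 h, which leaves 1 library assumed to vary like those of the other groups, and that of LOC_Os12g19381 without replicate 3 of 12 h (0.0595), and with only these groups in the fit the activase (0.0681) and LOC_Os12g19381 (0.107) were not called.

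**Figure D2:**
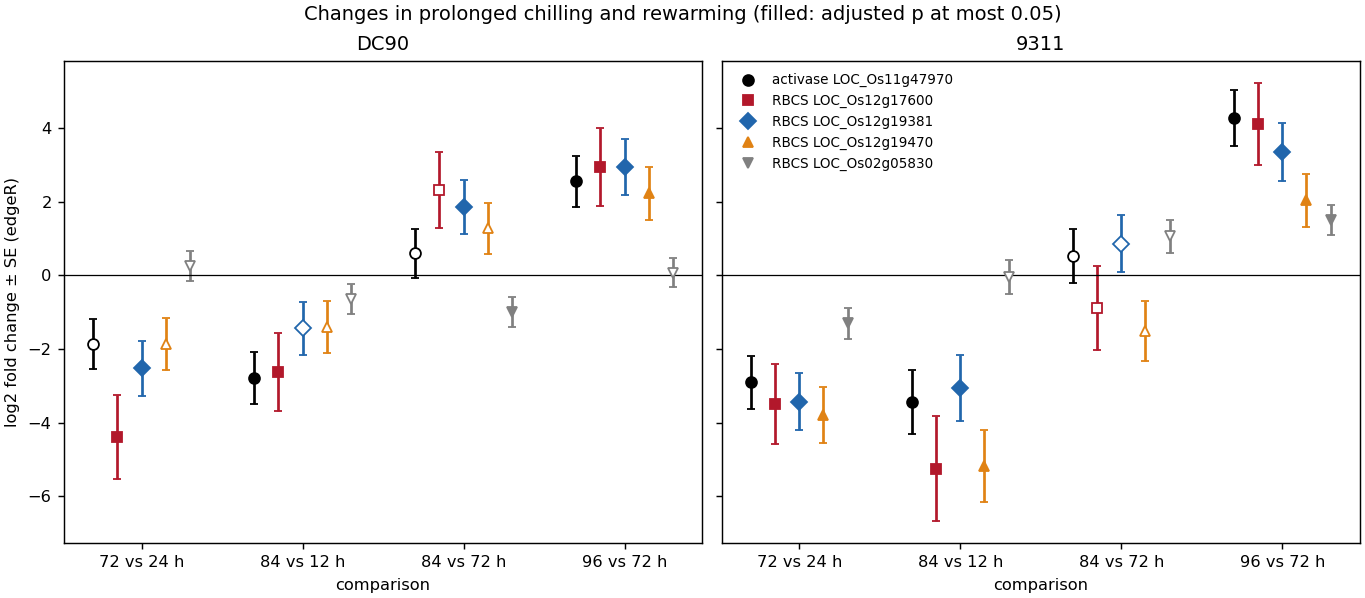
Log2 fold changes of the 5 loci for 72 against 24 h, 84 against 12 h, 84 against 72 h and 96 against 72 h, in DC90 and 9311, with error bars of 1 standard error from edgeR and filled symbols for an adjusted p of at most 0.05. All 5 loci lie below 0 for 72 against 24 h and above 0 for 96 against 72 h in 9311, where the activase stands at −2.91 and 4.27.

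Between the lines, LOC_Os02g05830 at 72 h was the only call among 29 tests of the 5 loci over the 6 times. It had 38.3, 16.6 and 29.2 FPKM in DC90 against 4.12, 8.32 and 7.17 FPKM in 9311 at 72 h. Every DC90 library lay above every 9311 library. The locus was 3.57-fold higher in DC90 (log2 fold change 1.84, SE 0.42, edgeR adjusted p = 0.0104), where 5.21% of all loci were called in either direction. The call was lost without DC90 72 h replicate 1 (adjusted p = 0.0555) or 9311 72 h replicate 1 (0.069) and with only these groups in the fit (0.11). The summed root markers at 72 h were also apart, at 18.3 to 26.8 FPKM in DC90 and 2.27 to 9.65 FPKM in 9311. The median log2 fold change of the 3 tested root markers was 2.23, and their part in the difference was not tested.

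**Figure D3:**
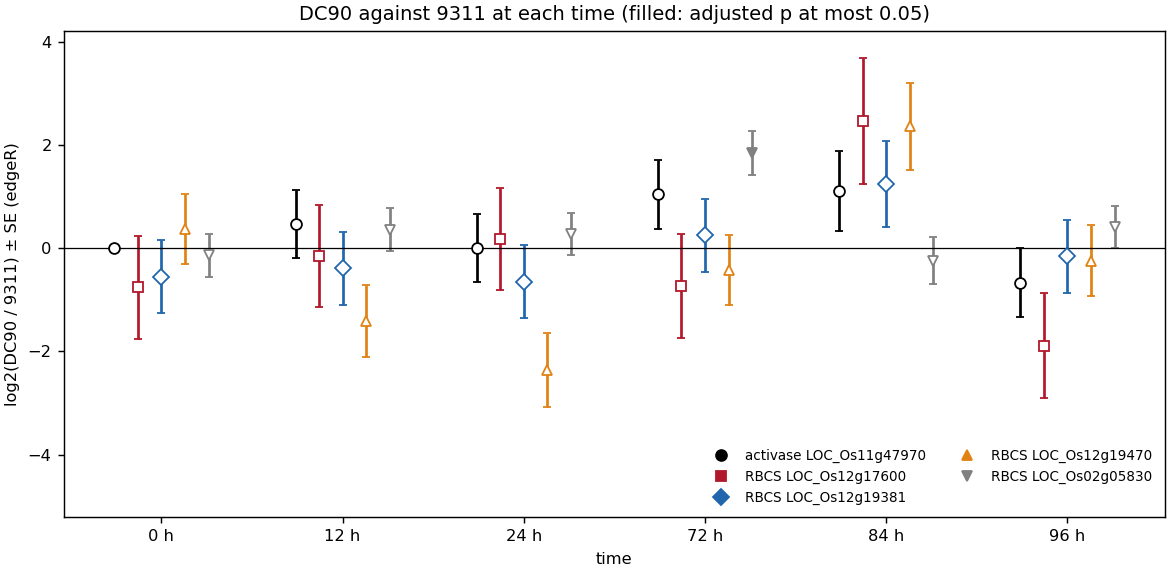
Log2 fold change of DC90 over 9311 for the 5 loci at each time in hours, with error bars of 1 standard error from edgeR and filled symbols for an adjusted p of at most 0.05. The activase at 0 h has no error bar, because its count there chose it. LOC_Os02g05830 at 72 h, at 1.84, is the one filled symbol, and LOC_Os12g19470 lies at −2.36 at 24 h and at 2.36 at 84 h.

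At the other 5 times edgeR called 0 of 24 tests between the lines, with 2 at an unadjusted p under 0.05, 1 by DESeq2 and 0 by limma. The share of all loci called was 0.597%, 0.375%, 0.823%, 0.675% and 0.658% for 0, 12, 24, 84 and 96 h. LOC_Os12g19470 did not overlap between the lines at 24 h, with 79.3, 180 and 174 FPKM in DC90 against 622.5, 836 and 463 FPKM in 9311 (log2 fold change −2.36, SE 0.72, adjusted p = 0.134), or −2.03 (0.366) without DC90 24 h replicate 1. It also did not overlap at 12 h (−1.41, SE 0.70, adjusted p = 0.524), or −1.56 (0.295) without 9311 12 h replicate 2, nor at 84 h (2.36, SE 0.84, adjusted p = 0.292). LOC_Os12g17600 was at −0.76 (adjusted p = 0.918) at 0 h, which became −1.93 (0.659) without DC90 0 h replicate 3. The activase, described at 0 h with a value of 0.00, was at 0.47 (adjusted p = 0.897), 0.01 (0.999), 1.04 (0.391), 1.11 (0.833) and −0.67 (0.851) at 12, 24, 72, 84 and 96 h, the first being 0.04 (0.987) without 9311 12 h replicate 2.

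Whether the lines differed in their response was tested as an interaction of line and time. Over chilling (12, 24 and 72 h against 0 h), over recovery (84 and 96 h against 0 h) and, for the activase, within chilling without 0 h, edgeR called 0 of 9 tests, with 2 at an unadjusted p under 0.05 and 0 by DESeq2 and by limma. The share of all loci called was 0.27% over chilling, 0.148% over recovery and 0.209% within chilling. LOC_Os02g05830, whose fall at 72 h was called in 9311 and not in DC90, had an interaction at an adjusted p of 0.382 over chilling. LOC_Os12g17600 was at 0.418 over recovery, LOC_Os12g19470 at 0.621 over chilling and the activase at 0.933 within chilling. The differences between the lines in which loci were called at a given time are therefore not shown to be differences in response.

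**Figure D4:**
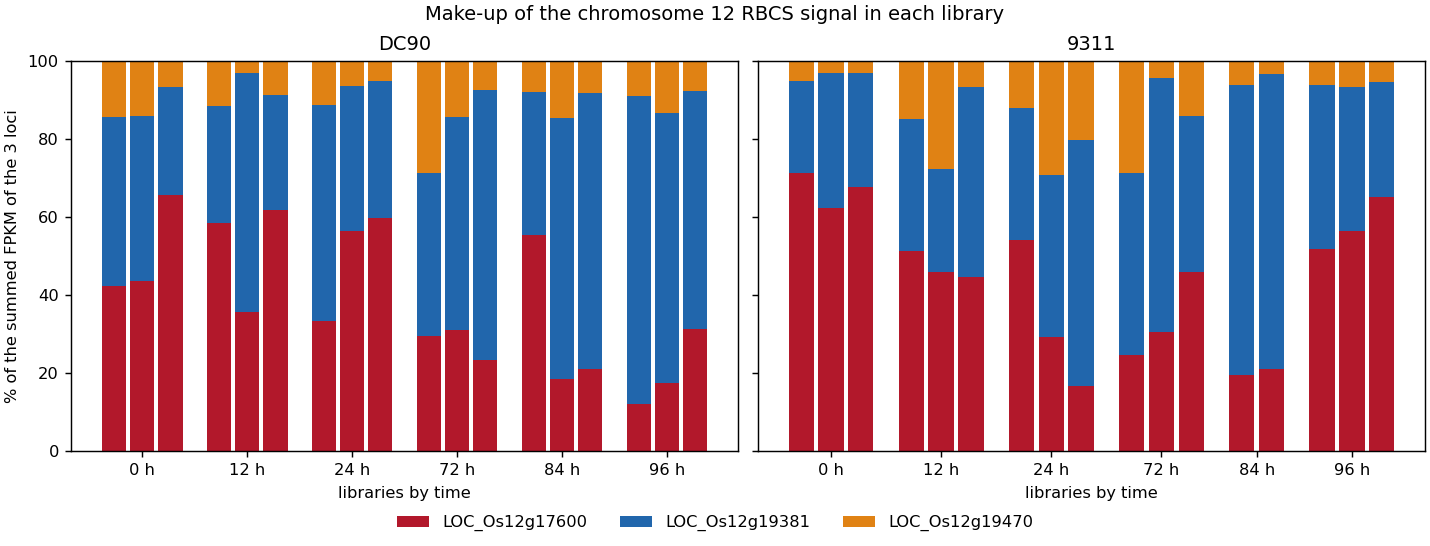
Share of the summed FPKM of the 3 chromosome 12 small subunit loci held by each locus, in percent, with 1 stacked bar for each library of DC90 and 9311 by time in hours. The share of LOC_Os12g17600 in 9311 lies between 62.2 and 71.3% at 0 h and between 19.5 and 21.0% at 84 h.

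The 3 chromosome 12 loci did not keep the same proportions. LOC_Os12g17600 held 42.2 to 65.6% of their summed FPKM at 0 h in DC90 and 62.2 to 71.3% in 9311. At 96 h it held 11.9 to 31.2% in DC90 and 51.8 to 65.1% in 9311, which did not overlap. At 84 h in 9311 LOC_Os12g19381 held 74.3 to 75.7%. LOC_Os12g19470 held 12.1 to 29.4% in 9311 at 24 h against 2.96 to 5.23% at 0 h. These shares are descriptions with no test, and they move with any splitting of reads among near-identical copies. The length implied by the ratio of count to FPKM and depth varied between libraries by 1.76 times for LOC_Os12g19470 and by 1.10 times for the activase.

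The ratio of activase to the summed chromosome 12 loci, in FPKM, which is per length, was 3.07, 2.70 and 0.830 at 0 h in DC90 and 0.903 to 1.09 in 9311. The value of 0.830 was that of DC90 0 h replicate 3, and without it the lines did not overlap at 0 h, which is a description, since the activase was chosen there. At 24 h it was 0.312 to 1.59 in DC90 and 0.253 to 0.423 in 9311, and at 96 h 0.748 to 1.64 in DC90 and 0.577 to 0.972 in 9311. The activase was thus below the small subunit sum in every 9311 library at 12 to 96 h. Over the 12 group means of log2 CPM (counts scaled to library depth), Pearson's r was 0.93 between LOC_Os12g17600 and LOC_Os12g19381, 0.93 between LOC_Os12g17600 and the activase and 0.78 between LOC_Os12g19470 and the activase, while LOC_Os02g05830 stood at 0.38 to 0.58 with the other 4. These groups share times and libraries, and the correlations are descriptions.

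The loci with the group means most like those of the activase were LOC_Os04g16680 (sedoheptulose-1,7-bisphosphatase, r = 0.986 over 12 group means), LOC_Os04g38600 (glyceraldehyde-3-phosphate dehydrogenase A, 0.983), LOC_Os11g07020 (chloroplast fructose-bisphosphate aldolase, 0.981), LOC_Os01g25010 (annotated as like SRG1, 0.98) and LOC_Os04g56230 (annotated as a farnesyl pyrophosphate synthase, 0.98). The loci most like the summed chromosome 12 loci were LOC_Os03g19760 (annotated as like SUPPRESSOR OF QUENCHING 1, 0.979), LOC_Os01g07090 (a protein phosphatase 2C, 0.979), LOC_Os08g34220 (an omega-6 desaturase, 0.978), LOC_Os01g45274 (carbonic anhydrase, 0.977) and LOC_Os11g24450 (a dicarboxylate and tricarboxylate transporter, 0.975).

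Other enzymes of the Calvin cycle reduce the carbon that Rubisco fixes and regenerate its CO2 acceptor. Of their 11 loci, 10 were called lower at 72 h than at 0 h in each line. The median log2 fold change was −2.03 in DC90, against −0.07 over all loci, and −1.91 in 9311, against −0.05. At 96 h, 8 of 11 in DC90 and 11 of 11 in 9311 were called higher than at 72 h. The shares of all loci were 21.6% and 24.9% lower at 72 h, and 21.2% and 26.4% higher at 96 h. The aldolase LOC_Os11g07020 was at 300 ± 153 FPKM at 72 h against 2033 ± 1177 FPKM at 0 h in DC90 and 199 ± 88.9 FPKM against 2880 ± 213 FPKM in 9311 (SD, n = 3 each). LOC_Os03g03720, the B subunit of glyceraldehyde-3-phosphate dehydrogenase, was not called at 72 h, at −0.81 (SE 0.43, adjusted p = 0.142) in DC90 and −0.59 (SE 0.43, adjusted p = 0.27) in 9311.

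Loci whose annotation names Rubisco or its assembly numbered 31, of which 25 were tested, and a text match also takes in loci that are not assembly factors. At 72 h against 0 h, 9 were called lower and 4 higher in DC90 (median −0.20), where 21.6% of all loci were lower and 18.6% higher. In 9311, 10 were called lower and 7 higher (median −0.19), where 24.9% of all loci were lower and 23.9% higher. Among the loci of chaperonin 60, whose subunits fold the large subunit, those of highest mean FPKM were named, and both fell. The beta locus (LOC_Os06g02380) was at −1.46 (SE 0.22, edgeR adjusted p = 1.1e-05) in DC90 and −1.35 (SE 0.22, adjusted p = 1.81e-05) in 9311. The alpha locus (LOC_Os12g17910) was at −1.39 in DC90 and −1.55 in 9311 on the log2 scale. Other chaperonin 60 loci of the list are not described here. The co-chaperonin LOC_Os06g09679 was at −1.36 in DC90 and −1.37 in 9311, with adjusted p = 0.000485 and 0.000331. LOC_Os03g59320, annotated as RbcX, an assembly chaperone, ran the other way, with 206 ± 87.5 FPKM at 72 h against 102 ± 37.5 FPKM at 0 h in DC90 (0.75, SE 0.59, adjusted p = 0.328) and 315 ± 186 FPKM against 121 ± 12.6 FPKM in 9311 (1.48, SE 0.60, adjusted p = 0.0416). At 96 h against 72 h it fell, with −2.61 (SE 0.62, adjusted p = 0.00138) in DC90 and −3.18 (SE 0.63, adjusted p = 0.000167) in 9311. A second locus annotated as an activase, LOC_Os04g56320, named here after its values were seen, was at 3.52 ± 0.852 FPKM at 72 h against 6.56 ± 1.16 FPKM at 0 h in DC90 and 3.31 ± 0.493 FPKM against 7.11 ± 0.0836 FPKM in 9311 (SD, n = 3 each).

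Of the 164 loci numbered between LOC_Os12g17600 and LOC_Os12g19470, 34 were tested between DC90 and 9311, and 4, 1, 3, 4, 2 and 2 of them were called at 0, 12, 24, 72, 84 and 96 h. Of all loci, 0.597%, 0.375%, 0.823%, 5.21%, 0.675% and 0.658% were called at those times. LOC_Os12g18630, annotated as like RETICULATA-RELATED 1, was lower in DC90 at 72 h (log2 fold change −0.97, SE 0.17, edgeR adjusted p = 0.000778). The 4 other loci called were named after their values were seen. LOC_Os12g18729 was lower in DC90 at all 6 times, with log2 fold changes of −1.56 to −3.84 (adjusted p = 0.000331 to 2.3e-09). LOC_Os12g18640, annotated as a pentatricopeptide repeat protein, was called lower in DC90 at 0, 24 and 72 h, with 1 to 32, 1 to 25 and 1 to 4 counts in DC90 against 829 to 1228, 229 to 3141 and 95 to 2115 counts in 9311. LOC_Os12g19100, annotated as a phytochrome A-associated F-box protein, was called higher in DC90 at every time but 12 h. At those 5 times it had 11 to 52 counts in DC90 and 0 counts in every 9311 library. At 12 h it had 13 to 18 counts in DC90 and 2 to 14 in 9311 (log2 fold change 1.13, SE 0.61, edgeR adjusted p = 0.595). Whether this bears on other 9311 values at 12 h was not tested. LOC_Os12g17830 was higher in DC90 at 0 h (0.99, SE 0.23, adjusted p = 0.0409). The 3 small subunit loci on either side of and within this stretch were called between the lines at none of the 6 times by edgeR, with LOC_Os12g19470 at an unadjusted p under 0.05 at 24 and 84 h, and called by DESeq2 at 24 h.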

How the data were processed

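Whole plants of DC90 and 9311 were profiled by RNA-Seq in 35 libraries, in groups taken from the sample labels. The table deposited by the authors gives, for each locus and library, a whole-number count of fragments and an FPKM value, the count scaled by transcript length and library depth by the authors. The study's methods name HISAT2 and Rice Release 7. The processing notes of the deposited record name Bowtie and another genome, and the study's methods were followed, as the loci are those of rice. The labels name a TruSeq library kit and the study's methods a NEBNext Ultra kit. How reads with several matches were counted is not given in the sources used here. Counts were fitted with edgeR 4.0.16 in R 4.3.3 (TMM, quasi-likelihood, 12 groups in 1 fit, 22961 loci with a mean of at least 0.5 FPKM), with Benjamini-Hochberg adjustment over all of them. DESeq2 1.42.0, limma 3.58.1 on log2(FPKM + 1) and log2(FPKM + 0.1), DESeq2 size factors, no filter, a replicate block, only the groups compared and each library left out were alternatives. The procedure was tested on simulated data. Standard errors are the log2 fold change divided by the root of the F statistic.

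Same-numbered libraries deviated together only between the lines at 12 h, as a check of correlations showed. The labels do not say how the replicates were raised beyond a replicate number, and the study's methods call them biological. The 5 loci were always named, with the 5 loci of the highest correlation to the activase and to the chromosome 12 sum and up to 4 loci of highest mean FPKM from each list. The members and lists were chosen with earlier results of these data known. From the lists, LOC_Os06g40640 and a root marker, LOC_Os02g44310, were dropped, as their annotation names another gene. Gene names of 4 of the 5 loci were matched in RefSeq. No sequence was used here.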

Additional observations from a re-analysis of the deposited data

How the results depend on the processing

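Calls are given at an adjusted p of at most 0.05, over the tests of each comparison. Among 1925 alternatives of 155 single values, 1804 kept their side of the threshold, among them 95 uncalled values that changed sign, 98 lost a call, 22 gained one and 1 moved, and none of the called values changed sign. In DC90, small subunit loci against 0 h had 3 calls of 20 (3 to 3 with each library left out), 72 h against 24 h had 2 of 5 (0 to 4, and 4 by DESeq2), and rewarming had 8 of 15 (4 to 8, and 5 with no filter on low values, which tests more loci). In 9311 these were 7 of 20 (5 to 8), 5 of 5 (3 to 5, and 0 with only the groups compared) and 9 of 15 (7 to 10, and 6 with only the groups compared). DC90 against 9311 had 1 of 29 (0 to 2, 2 by DESeq2 and 0 with only the groups compared), and the interaction 0 of 9 (0 to 0). The summed chromosome 12 loci had 5 of 9 in DC90 (3 to 5, and 3 with no filter and by limma at either pseudocount), 5 of 9 in 9311 (3 to 5, and 3 with only the groups compared) and 0 of 6 between the lines.

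With a replicate block, as a paired fit would have it, the counts in that order were 3, 2 and 9 in DC90, 8, 5 and 9 in 9311, 1 between the lines and 0 for the interaction. Over 68 same-numbered pairs in 24 comparisons the correlation of deviations ran from −0.36 to 0.41 (median 0.01), and 12 pairs were over 0.1. In 1 comparison, DC90 against 9311 at 12 h, all 3 pairs were over 0.1 (0.20, 0.41 and 0.22), and the block changed no call of the 5 loci there. In the other comparisons the numbers were not taken to pair the samples.

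Counts over all loci also moved by more than 1.5 times. With only the groups compared they were 1 against 4112 for 72 against 24 h in 9311, 2046 against 8204 for 84 against 12 h and 4521 against 10952 for 84 against 72 h in 9311, and 1680 against 2827 and 725 against 1457 for 84 and 96 h against 0 h in DC90. The other such counts with only the groups compared were 3645 against 5797 for 12 against 0 h in 9311, and 73, 10, 15, 79 and 59 against 137, 86, 189, 1196 and 155 between the lines at 0, 12, 24, 72 and 84 h. DESeq2 called 356, 317, 616, 2495, 410 and 373 loci between the lines at 0, 12, 24, 72, 84 and 96 h, against 137, 86, 189, 1196, 155 and 151, and 2221 against 1457 and 1214 against 604 for 96 against 0 h in DC90 and 9311. limma on log2(FPKM + 1) called 4363 against 2575 for 72 against 24 h and 6812 against 2827 for 84 against 0 h in DC90, 3588 against 2210 and 919 against 604 for 84 and 96 against 0 h in 9311, and 168 and 270 against 86 and 155 between the lines at 12 and 84 h. With no filter, 1649 against 2575 for 72 against 24 h in DC90 and 791 against 1196 between the lines at 72 h were called. The interactions over chilling, over recovery and within chilling had 62, 34 and 48 calls, against 414, 556 and 376 by DESeq2, 133, 62 and 114 by limma on log2(FPKM + 1) and 10, 5 and 0 with only the groups compared, and over recovery 15 with a replicate block. limma on log2(FPKM + 0.1) called 4255 for 72 against 24 h and 5973 for 84 against 0 h in DC90, 155 between the lines at 12 h, and 96 and 16 for the interactions over chilling and recovery. The split of calls lower and higher moved by over 10 percentage points between the lines at 72 h, to 425 and 1090 by limma on log2(FPKM + 1) and 302 and 489 with no filter, against 589 and 607, and for 96 against 0 h to 638 and 576 by DESeq2 in 9311 and 979 and 624 by limma in DC90, against 381 and 223 and 1089 and 368. The split between the lines also moved at 0, 12, 24 and 84 h. DESeq2 gave 103 and 253 at 0 h, against 56 and 81, and 151 and 166 at 12 h, against 52 and 34. At 24 h limma on log2(FPKM + 1) gave 60 and 202, against 68 and 121. With only the groups compared, 84 h had 19 and 40, against 91 and 64. Such splits by limma in the other comparisons over time are given beside the results. The causes were not tested.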
